A study of Mus musculus with 6 samples.

Results

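Transcripts of glyceroneogenesis and triglyceride assembly were measured in subcutaneous white fat, labelled IWAT, of mice with and without a Ucp1Cre transgene, all with floxed Yy1. The 10 genes considered were Pck1, Gpd1, Gpd2, Gk, Aqp7, Gpam, Agpat2, Lpin1, Dgat1 and Dgat2, chosen by name for their place in the pathway. That choice was made with earlier results of these data known. The platform's annotation names 1 of these genes alone for 16 probe sets, out of 22690 probe sets on the Affymetrix array, and they cover 8 of the 10 genes. Gk, also written Gyk, and Agpat2 were not analysed here. A probe set is a group of short probes that together report 1 transcript or a few. Pck1, Aqp7, Gpam, Dgat2 and Lpin1 had 2 probe sets each, Gpd1 had 4, and Gpd2 and Dgat1 had 1.

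Control mice carried YY1flox/flox alleles, and YY1bKO mice carried YY1flox/flox together with Ucp1Cre. All mice were 8 weeks old, of a mixed C57BL6 and 129 background, and had eaten a high fat diet for 2 weeks, so floxed Yy1 and the diet were shared by both groups. There were 3 arrays per group, and that number limits the precision of every value. The labels do not say whether replicates were separate animals, so p-values describe only how these samples vary. Ucp1Cre acts mainly in brown and beige adipocytes, every sample with Cre also had floxed Yy1, and effects of Cre cannot be told apart from those of the deletion. The design asks how this fat depot differs between the genotypes on the diet.

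Adipocytes store fatty acids as triglyceride, which needs glycerol 3-phosphate as its backbone. White adipocytes make much of it from pyruvate through phosphoenolpyruvate carboxykinase, a route called glyceroneogenesis, and from glucose through dihydroxyacetone phosphate. The backbone then receives fatty acids in turn from a glycerol-3-phosphate acyltransferase and an acylglycerophosphate acyltransferase, a lipin removes the phosphate, and a diacylglycerol acyltransferase adds the last chain.

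Values below are log2(intensity + 1), and a difference is the YY1bKO mean minus the control mean on that scale, which understates the change of dim probe sets. The test was limma over 22626 probe sets, with Benjamini-Hochberg adjustment and a threshold of 0.05. Of the targeted gene, the brightest Yy1 probe set gave -0.24 ± 0.12 (SE, n = 3 per group, limma adjusted p = 0.609). The dimmer Yy1 probe sets gave -0.07, -0.19 and -0.11, and it is not known whether any Yy1 probe set lies in the deleted part. Ucp1 was higher by 5.25 (limma adjusted p = 2.53e-04). Of 10 adipocyte markers 7 were measured, and their summed intensity ran from 83793 to 106458 in control and from 98238 to 104120 in YY1bKO arrays. Markers of other cells were uneven between arrays of the same genotype. The summed intensity of 8 skin and mammary epithelium markers was 9791 in control replicate 2 and 250.8 to 439.6 in the 5 other arrays. The keratins and Epcam of this list were high in that array, and Csn3 and Wap were not (3.86 and 4.90). Skeletal muscle markers, 8 of 8 measured, summed to 5512.5 in YY1bKO replicate 1 and to 895.4 to 2849.1 elsewhere, with a median difference of 0.96. Acta1 alone of them did not overlap between the genotypes. It read 8.29, 7.51 and 8.22 in control and 10.62, 9.04 and 10.62 in YY1bKO arrays (limma adjusted p = 0.278). Of 6 B cell markers 5 were measured, and they summed to between 230.2 and 6870.6 in control and between 183.3 and 3258.8 in YY1bKO arrays. The highest value was in control replicate 3, and replicate 1 was the lowest array of each genotype (230.2 and 183.3). Brown and beige markers, 7 of 8 measured, summed to 1475.8 to 2995.8 in control and to 8980.5 to 10021.8 in YY1bKO arrays. Their sum moved with the genotype, as most members did. Within the list, Cidea read 11.01 in control replicate 2, above its highest YY1bKO array (10.92), and Dio2 differed by 0.07. The part of brown and beige cells or of muscle cells in the member differences was not tested.

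Lpin1, the lipin of the pathway, was higher in YY1bKO fat at both of its probe sets (1.11 and 1.03). The first of these, 1426516_a_at, was the only member probe set past the adjusted threshold. Of all probe sets 0.0486% passed, each of them higher. At an unadjusted p under 0.05 by limma, 9 of the 16 member probe sets were higher and 0 were lower, beside 7.46% higher and 2.06% lower of all probe sets tested. These 9 belonged to Pck1, Gpd1, Gpd2, Aqp7, Lpin1 and Dgat1. The genes were chosen with earlier results of these data known, so an excess over all probe sets is a description and not a test. In 7 of the 16 every YY1bKO array lay above every control array, beside 10.3% of all probe sets. The median difference was 0.59 over the 16 probe sets and -0.0012 over all probe sets, and 12 of the 16 were positive, beside 49.8% of all. None lay wholly below the controls, beside 5.17% of all. Counted once per gene at its brightest probe set, 6 of 8 genes were higher at an unadjusted p under 0.05, beside 8.6% of 12393 genes, 5 did not overlap and were higher, beside 11.5%, and 7 had a positive difference, beside 51% of genes. The count of 9 was 4 without control replicate 3, 4 without YY1bKO replicate 1 and 5 without YY1bKO replicate 3, and between 7 and 10 without any other single array.

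**Figure D1:**
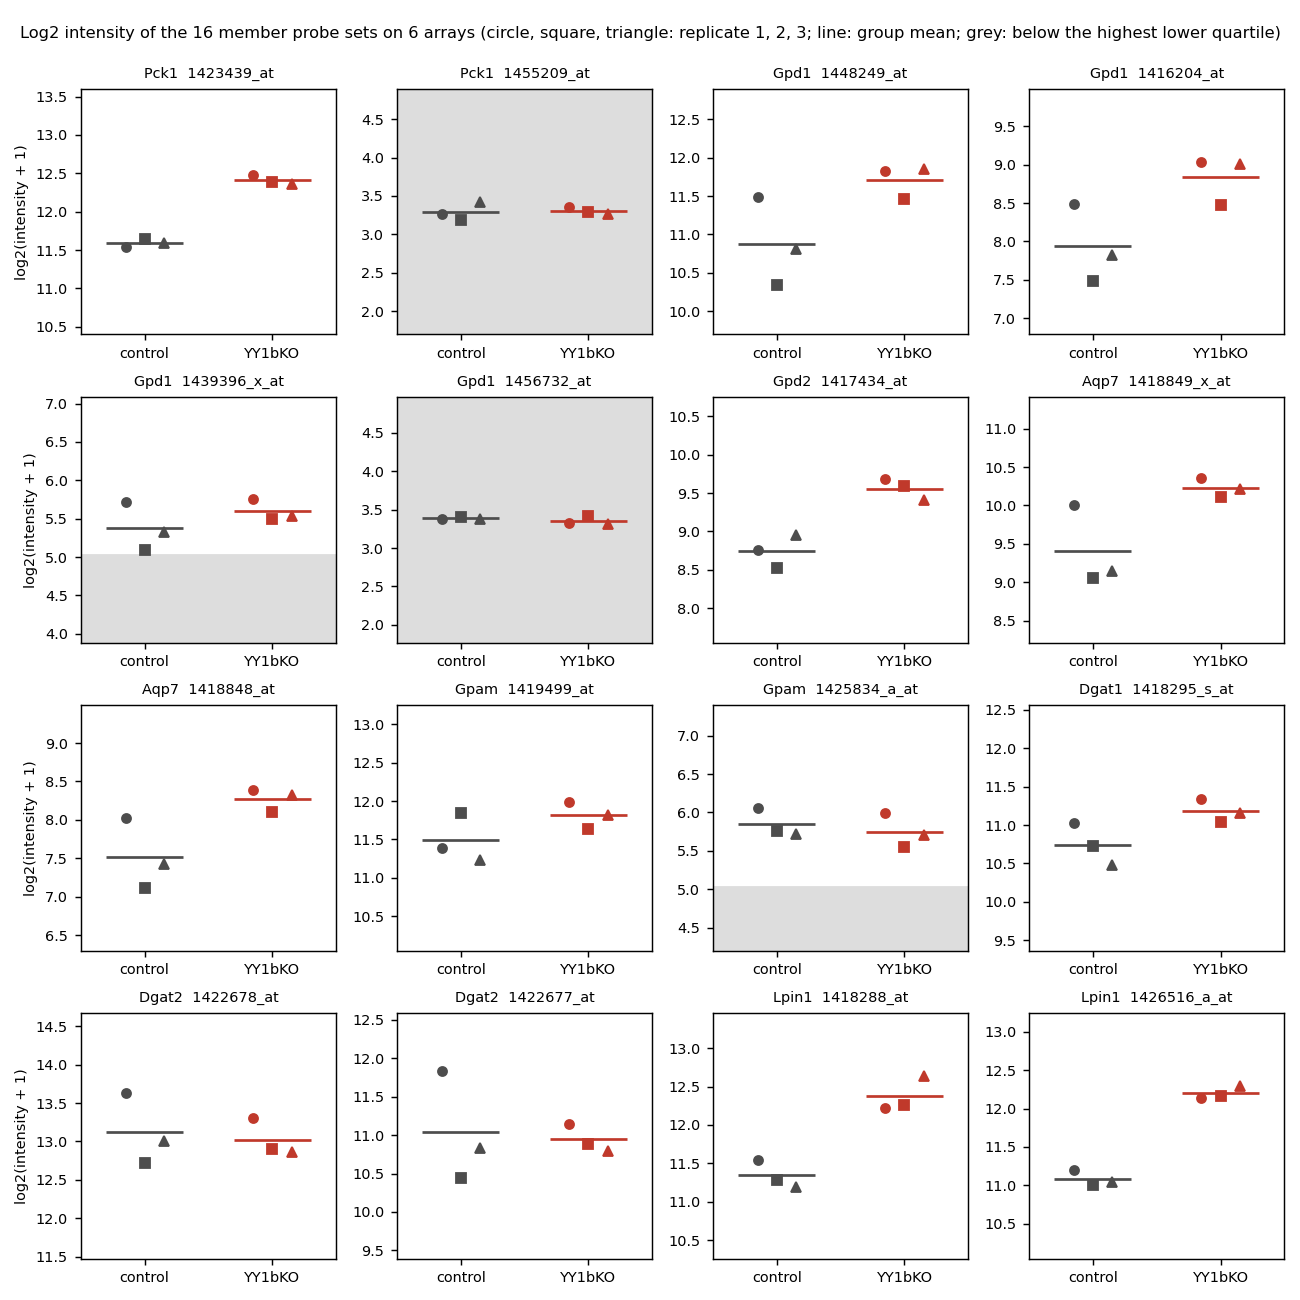
Each panel plots log2(intensity + 1) of 1 member probe set on the 6 arrays, with circle, square and triangle for replicates 1, 2 and 3, a line at each group mean and the same height of axis in all panels. Grey covers values below the highest lower quartile of the arrays (5.03). Pck1 1423439_at, Gpd2 and both Lpin1 probe sets show groups that lie apart, tightest in Pck1 1423439_at and Lpin1 1426516_a_at. Control replicate 1 lies high in Gpd1, Aqp7 and Dgat2, and 2 probe sets lie wholly in the grey.

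**Figure D2:**
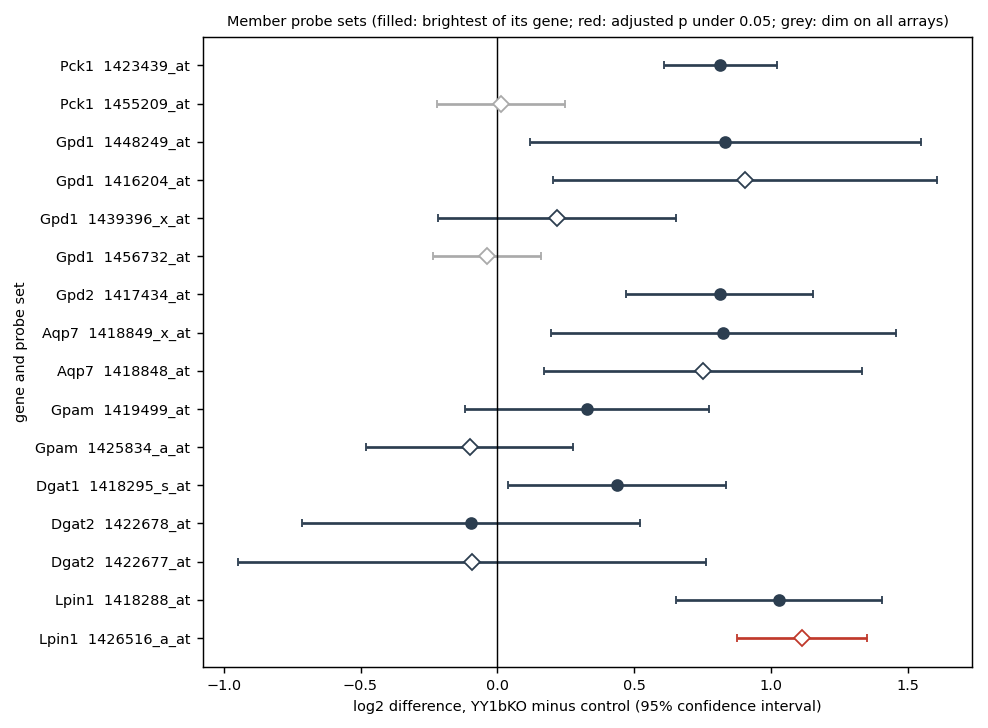
Log2 difference between YY1bKO and control (x axis) with its 95% confidence interval from limma for each of the 16 member probe sets. Filled circles mark the brightest probe set of a gene, red the 1 probe set past the adjusted threshold (Lpin1 1426516_a_at, 1.11), and grey the 2 that are dim on all arrays, both close to 0.

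Pck1 encodes the cytosolic phosphoenolpyruvate carboxykinase, which turns oxaloacetate into phosphoenolpyruvate and commits carbon to glyceroneogenesis. Its probe set 1423439_at read 11.54, 11.65 and 11.59 in control tissue and 12.48, 12.39 and 12.36 in YY1bKO tissue. The groups lay far apart, with a spread inside each of 0.05 and 0.06 (SD, n = 3). On the linear scale its mean intensity was 3090 ± 113 in control and 5439 ± 228 (SD) in YY1bKO. The log2 difference was 0.82 ± 0.09 (SE), a 1.76-fold higher level, with a 95% confidence interval of 0.61 to 1.02. It ranked 22 of 22626 by p and did not pass (limma adjusted p = 0.0601), and it passed with a pseudocount of 16 (limma adjusted p = 0.0328). Over 16 alternatives the adjusted p by limma lay between 0.0328 and 0.348. An exact 2-sided permutation test gave p = 0.1, the smallest that 3 against 3 arrays allow.

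The other Pck1 probe set, 1455209_at, gave a different picture. It read between 3.19 and 3.42 in control and between 3.26 and 3.35 in YY1bKO arrays, with a difference of 0.01 ± 0.10 (SE). Every one of these values lay below the lower quartile of its array, which was between 4.94 and 5.03, and the probe set stood at the 2.1 percentile of brightness against 97.7 for 1423439_at. The difference between genotypes was larger by 0.80 at the bright probe set (exact 2-sided permutation p = 0.1, the smallest possible). Which part of the transcript each probe set reports was not analysed here.

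Upstream sequence is shown for Pck1 and Lpin1, the members with the smallest p, to let the reader see which textbook elements lie next to their starts. RefSeq promoter entries of build GRCm38.p6 matched 7 of the 10 genes, and the 250 bases before the start are printed 5′ to 3′ on the gene's strand. Capitals mark matches to any of 5 motifs searched on both strands.
Pck1, chr2:173152823-173153072, plus strand: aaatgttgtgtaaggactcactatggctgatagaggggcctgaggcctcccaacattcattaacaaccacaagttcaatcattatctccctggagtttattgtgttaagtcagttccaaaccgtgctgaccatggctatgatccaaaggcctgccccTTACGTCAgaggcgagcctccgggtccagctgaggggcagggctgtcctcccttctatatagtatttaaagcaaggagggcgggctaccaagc
Lpin1, chr12:16610967-16611216, minus strand: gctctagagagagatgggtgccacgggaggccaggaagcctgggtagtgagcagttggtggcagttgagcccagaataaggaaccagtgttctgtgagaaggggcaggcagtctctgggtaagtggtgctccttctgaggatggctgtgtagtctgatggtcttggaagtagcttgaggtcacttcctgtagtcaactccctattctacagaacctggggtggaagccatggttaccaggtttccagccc
The match in Pck1 is TTACGTCA, a form of the cyclic AMP response element, from 93 to 86 bases before the start. Of 32851 promoters of the same length 0.447% hold it. The Lpin1 window held no match to it, nor to TGACGTCA (1.55% of promoters), CACGTG (6.02%), TATAAA (12.4%) or CCATNTT, a core of YY1 sites (12.4%), and the Pck1 window held none of these other 4. The only other match in the 10 member promoters was a CACGTG in Gk, so no matches overlapped.

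Gpd1, the cytosolic glycerol-3-phosphate dehydrogenase, makes glycerol 3-phosphate from dihydroxyacetone phosphate. Its brightest probe set 1448249_at read 11.49, 10.35 and 10.81 in control and 11.83, 11.46 and 11.85 in YY1bKO arrays. Control replicate 1 lay among the YY1bKO arrays, so the groups overlapped, and the control spread (0.58, SD) exceeded that of YY1bKO (0.22). The difference was 0.83 ± 0.29 (SE; limma unadjusted p = 0.0288 and adjusted p = 0.460). The second probe set, 1416204_at, read 8.49, 7.48 and 7.83 against 9.04, 8.48 and 9.01 and gave 0.91 ± 0.29 (limma adjusted p = 0.409). In both, control replicate 2 was the lowest array and control replicate 1 the highest control. Without control replicate 2 the brightest probe set gave 0.57 and without control replicate 1 it gave 1.14. The 2 dimmer Gpd1 probe sets gave smaller differences (by 0.62 and 0.87 than the brightest, exact 2-sided permutation p = 0.1 and 0.2). Probe set 1439396_x_at, whose suffix marks probes that may also bind other transcripts, ran from 5.09 to 5.72 in control and from 5.50 to 5.76 in YY1bKO arrays (difference 0.22). The fourth, 1456732_at, lay under the lower quartile on all arrays, with a difference of -0.04.

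Gpd2, the mitochondrial dehydrogenase that turns glycerol 3-phosphate back into dihydroxyacetone phosphate and passes electrons to the respiratory chain, was read by 1417434_at. Its values were 8.76, 8.52 and 8.95 in control and 9.68, 9.59 and 9.41 in YY1bKO arrays, and the groups did not overlap. The difference was 0.81 ± 0.14 (SE), or 1.76-fold, with a limma unadjusted p of 0.00104 and an adjusted p of 0.168. Brown fat is known for a high level of this enzyme. The Gpd2 difference lay between 0.70 and 0.92 in all 16 alternatives, and was 0.75 without YY1bKO replicate 1. That array had the highest sum of skeletal muscle markers, but Acta1 was as high in YY1bKO replicate 3 (10.62 in both). The part of brown or muscle cells in the Gpd2 difference was not tested.

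Aqp7 is the aquaglyceroporin through which glycerol leaves and enters adipocytes. The brighter probe set 1418849_x_at, whose suffix marks probes that may also bind other transcripts, read 10.001, 9.05 and 9.15 in control arrays. In YY1bKO arrays it read 10.35, 10.11 and 10.21. All YY1bKO arrays were above all controls by a small margin at control replicate 1, and the difference was 0.83 ± 0.26 (SE; limma adjusted p = 0.402). Probe set 1418848_at read 8.03, 7.11 and 7.42 against 8.39, 8.10 and 8.33, a difference of 0.75 ± 0.24 (limma adjusted p = 0.409). Control replicate 1 was the highest control in both, as in Gpd1. Without that array the differences were 1.13 and 1.00 (limma adjusted p = 0.112 and 0.133), and without control replicate 2 they were 0.65 and 0.55. The unadjusted p of 1418849_x_at by limma was then 0.0507, and it was 0.0586 without control replicate 3 and 0.0563 without YY1bKO replicate 1. The 2 probe sets differed in their genotype difference by 0.08 (exact 2-sided permutation p = 0.6).

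Gpam encodes the mitochondrial glycerol-3-phosphate acyltransferase, which attaches the first fatty acid. At 1419499_at it read 11.39, 11.84 and 11.23 in control and 11.98, 11.64 and 11.82 in YY1bKO arrays, and the groups overlapped through control replicate 2. The difference of 0.33 ± 0.18 (SE) had a 95% confidence interval from -0.12 to 0.77 and did not pass (limma adjusted p = 0.647). Without control replicate 2, the array high in skin and mammary epithelium markers, it was 0.51 (limma adjusted p = 0.443), and without control replicate 3 it was 0.20, the ends of the range over single arrays left out. Csn3 and Wap, the milk protein genes of that list, were not raised in this array. The part of epithelial cells in the control Gpam value was not tested. The dim probe set 1425834_a_at ran from 5.73 to 6.06 in control and from 5.55 to 5.99 in YY1bKO arrays, with a difference of -0.10 ± 0.16 (SE).

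Lpin1 encodes lipin 1, the phosphatidate phosphatase that makes diacylglycerol and also acts in the nucleus as a coactivator of fatty acid oxidation genes. Its probe set 1426516_a_at read 11.20, 11.01 and 11.04 in control and 12.14, 12.16 and 12.30 in YY1bKO arrays. The gap between the groups was many times the spread inside them (SD 0.10 and 0.08, n = 3 each). Lpin1 rose by 1.11 ± 0.10 (SE), or 2.16-fold, with a limma adjusted p of 0.0449 and rank 11 of all probe sets. Mean intensity went from 2177 ± 158 to 4707 ± 280 (SD). The other probe set, 1418288_at, read 11.54, 11.29 and 11.20 against 12.22, 12.26 and 12.64, and also did not overlap. Its difference was 1.03 ± 0.16 (SE), or 2.04-fold, with an unadjusted p of 0.000485 and a limma adjusted p of 0.155. The 2 probe sets did not differ detectably in their genotype difference (-0.08, exact 2-sided permutation p = 0.5).

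The call of Lpin1 rested on all 6 arrays. Its limma adjusted p was 0.110, 0.129 and 0.211 without control replicate 1, 2 and 3, and 0.286, 0.312 and 0.315 without YY1bKO replicate 1, 2 and 3. The differences of 1426516_a_at in those fits ran from 1.06 to 1.17. It passed in 5 of 15 alternatives, in a range of adjusted p from 0.0328 to 0.315, and under 1 probe set per gene Lpin1 was represented by 1418288_at, which did not pass.

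Dgat1 and Dgat2 encode enzymes of unrelated sequence that catalyse the final step, in which diacylglycerol becomes triglyceride. Dgat1 was read by 1418295_s_at, whose suffix marks probes shared by several transcripts. Its values were 11.03, 10.73 and 10.48 in control and 11.34, 11.04 and 11.16 in YY1bKO arrays, and the highest control almost reached the lowest YY1bKO array. The difference was 0.44 ± 0.16 (SE), or 1.35-fold, with a limma unadjusted p of 0.0363 and an adjusted p of 0.487. It ranged from 0.30 without control replicate 3 to 0.58 without control replicate 1.

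For Dgat2 the groups overlapped at both probe sets. Probe set 1422678_at, at the 99.3 percentile of brightness, read 13.63, 12.72 and 13.004 in control and 13.30, 12.90 and 12.86 in YY1bKO arrays. Control replicate 1 was the highest of all 6 arrays and control replicate 2 the lowest. The difference was -0.10 ± 0.25 (SE), with a 95% confidence interval of -0.71 to 0.52 (limma adjusted p = 0.929). Probe set 1422677_at read 11.84, 10.44 and 10.83 against 11.15, 10.89 and 10.79 and gave -0.09 ± 0.35 (SE). Both signs turned without control replicate 1, to 0.16 and 0.31, so no direction can be given for Dgat2.

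Members differed in how they followed the arrays within a genotype. In the controls, Gpd1, Aqp7, Dgat1, Dgat2 and Lpin1 were highest in replicate 1 at the brightest probe set, whereas Pck1 was lowest there. The mean of the 7 adipocyte markers, each set to 0 over its 6 arrays, was 0.10, -0.25 and -0.17 in control tissue, against 0.14, 0.03 and 0.15 in YY1bKO. It was therefore also highest in replicate 1 among the controls, at a level between those of the YY1bKO arrays. Of these markers 6 of 7 had a positive difference, with a median of 0.12, and 1, Nnat, was higher at an unadjusted p under 0.05 (0.95). In whole tissue, fewer cells of a type and less RNA per cell cannot be told apart.

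With that mean as a covariate, an alternative chosen after seeing the data, the difference was 0.86 for Pck1 1423439_at, 0.76 for Gpd2, and 0.99 and 0.82 for the Lpin1 probe sets. These 4 kept an unadjusted p under 0.05 by limma (4.20e-04, 0.0115, 2.28e-04 and 0.00581), and none passed after adjustment. The difference was 0.16 for Gpd1 1448249_at, 0.25 for Aqp7 1418849_x_at and 0.17 for Dgat1, with limma unadjusted p of 0.249, 0.130 and 0.363. For Dgat2 it was -0.61 and -0.86, with unadjusted p of 0.0260 and 0.0110 and adjusted p of 0.432 and 0.376. The marker mean is itself made of genes that the genotype may alter, as with Nnat.

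**Figure D3:**
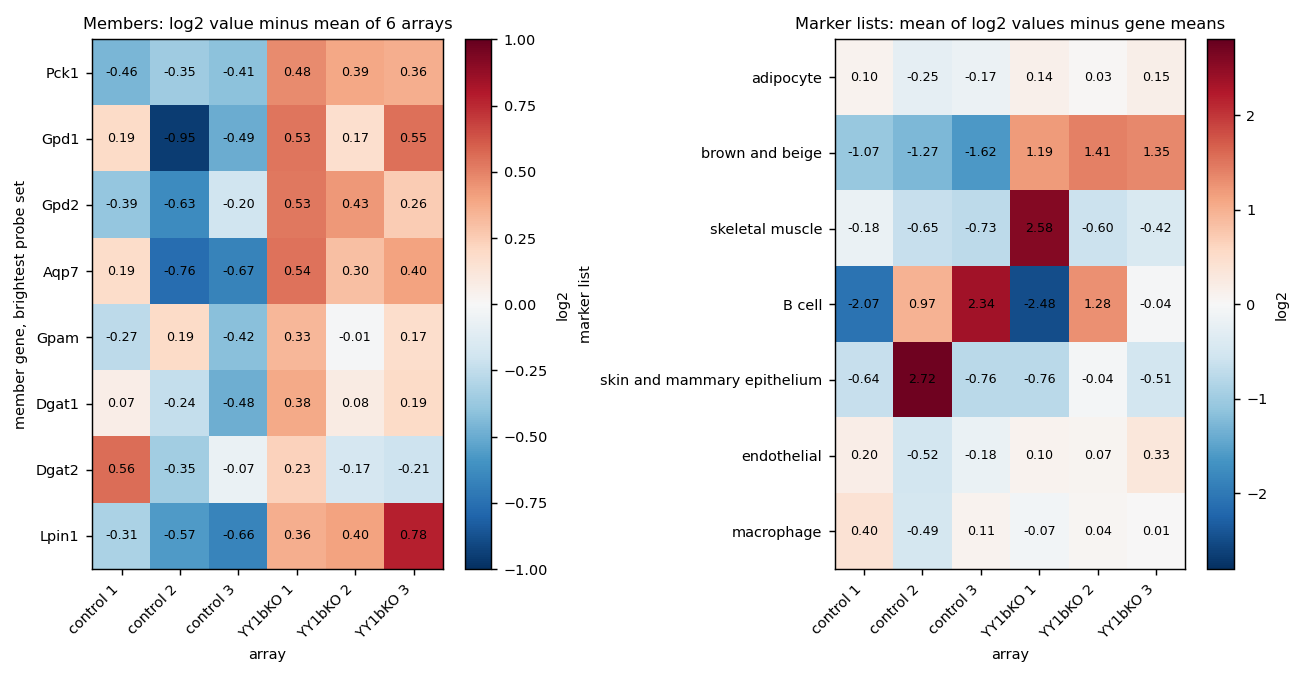
The left panel shows the 8 member genes at their brightest probe set, as the log2 value minus the mean of the 6 arrays, and the right panel the mean of each marker list on the same scale with wider colour limits. Columns are arrays. Pck1, Gpd2 and Lpin1 are below 0 in all controls and above 0 in all YY1bKO arrays. Gpd1 and Aqp7 are above 0 in control replicate 1. Single arrays stand out for skeletal muscle (2.58) and skin and mammary epithelium (2.72). B cell markers are highest in control replicate 3 (2.34) and low in replicate 1 of control and YY1bKO (-2.07 and -2.48).

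**Figure D4:**
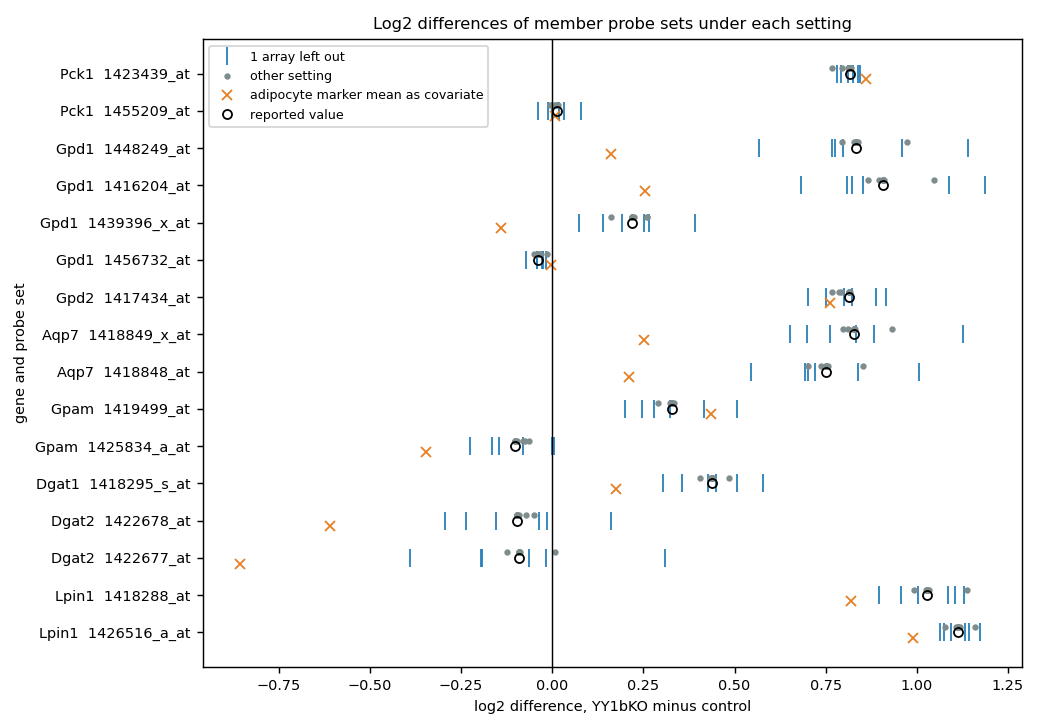
Log2 difference (x axis) of each member probe set as reported (open circle), with 1 array left out (blue bars), with the adipocyte marker mean as a covariate (orange crosses) and under the other settings (grey points). Pck1 1423439_at stays between 0.77 and 0.86 and Lpin1 1426516_a_at between 0.99 and 1.17, while the crosses of Gpd1, Aqp7 and Dgat2 lie far from the reported values.

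Genes that act beside these members were counted from lists chosen for their role, at the brightest probe set of each gene. The lists too were chosen with earlier results of these data known. Over all 12393 genes 8.6% were higher and 2.11% lower at an unadjusted p under 0.05 by limma, and the median difference was 0.0046. No gene of the 5 lists below passed after adjustment.

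Other enzymes of glycerolipid synthesis were split in direction. Of 13 genes 9 were measured, 4 higher and 5 lower, with a median of -0.02, and 2 were higher at an unadjusted p under 0.05. Mogat1, a monoacylglycerol acyltransferase, differed by 0.71 ± 0.26 (SE) and Agpat1, an acylglycerophosphate acyltransferase, by 0.32 ± 0.11. The dimmer Agpat1 probe set gave 0.10 (limma unadjusted p = 0.414). Lpin2, the lipin 1 paralogue, differed by -0.44 ± 0.21 and Gpat4, the glycerol-3-phosphate acyltransferase of the endoplasmic reticulum, by 0.53 ± 0.33, with limma adjusted p of 0.584 and 0.682. Dimmer probe sets gave -0.30 and -0.04 for Lpin2 and 0.10 for Gpat4. At the brightest probe sets both genes were highest in control replicate 2 (8.84 and 9.11), the array high in skin and mammary epithelium markers. The part of epithelial cells in these differences was not tested.

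Among genes that bring carbon to glycerol 3-phosphate, 13 of 16 were measured, 8 higher and 5 lower, with a median of 0.08. Pdk4, the kinase that shuts pyruvate dehydrogenase and so spares pyruvate, read 10.55, 11.06 and 10.22 in control and 12.12, 12.44 and 12.49 in YY1bKO arrays. No control came near the YY1bKO values, and the difference of 1.74 ± 0.23 (SE) was above the value of each member, with a limma adjusted p of 0.118 (the differences were not tested against each other). Pck2, the mitochondrial carboxykinase, differed by 0.54 ± 0.12, with non-overlapping arrays and 0.55 at its second probe set. Mdh2, the mitochondrial malate dehydrogenase, differed by 0.25 ± 0.11 and Aldoa, an aldolase, by 0.46 ± 0.19, with limma adjusted p of 0.531 and 0.533. At the brightest probe sets Pdk4 and Pck2 were the 2 genes of this list higher at an unadjusted p under 0.05. Dimmer probe sets of the next genes were also under it, with 0.35 for Mdh2 (limma unadjusted p = 0.0153) and 0.51, 0.56 and 0.57 for Aldoa (limma unadjusted p = 0.0362, 0.0131 and 0.0363). All Aldoa probe sets carry the suffix of probes that may also bind other transcripts.

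The branch from diacylglycerol and phosphatidate to phospholipids had 13 of 18 genes measured, 6 higher and 7 lower, with a median of -0.02. Chkb, a choline kinase, was the 1 gene with an unadjusted p under 0.05 (0.33 ± 0.13, SE). Cept1 and Chpt1, which join diacylglycerol to the phospholipid head group, differed by 0.34 ± 0.14 and 0.44 ± 0.22. The other 3 Chpt1 probe sets gave 0.74, 0.65 and 0.53, with limma unadjusted p of 0.0123, 0.0480 and 0.125. Dgkz, a diacylglycerol kinase abundant in lymphocytes, differed by -0.62 ± 0.32, and by -0.28 at its dimmer probe set. The 5 measured B cell markers had a median of -0.70. Each overlapped between the genotypes, with limma unadjusted p from 0.322 to 0.735 and a wide spread inside each genotype. Their part in the Dgkz difference was not tested.

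Triglyceride breakdown and glycerol release had all 10 genes measured, 5 higher and 5 lower, with a median of 0.13. Pnpla2, the lipase of the first step, differed by 1.00 ± 0.19 (SE) and Lipe, hormone-sensitive lipase, by 0.83 ± 0.17, and the arrays of both did not overlap (limma adjusted p = 0.207 and 0.232). Ces1d, a carboxylesterase, differed by 0.38 ± 0.17, with 0.60 and 0.30 at its other probe sets. Pnpla3, which responds to feeding, read 10.04, 8.79 and 8.54 in control and 9.23, 6.91 and 7.22 in YY1bKO arrays, a difference of -1.34 ± 0.69 inside a wide spread. Of the other aquaporins, Aqp1 gave 0.37, Aqp3 -0.24 and Aqp9 -0.69, none with an unadjusted p under 0.05. Aqp9 was highest in control replicate 2 (7.33).

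Transcription factors and coactivators of the pathway had 12 of 12 genes measured, 9 higher and 3 lower, with a median of 0.19. Nr1h3, the oxysterol receptor LXR alpha, differed by 0.62 ± 0.16 (SE) and Ppargc1a by 0.92 ± 0.26. Both had groups that did not overlap at the brightest probe set (limma adjusted p = 0.332 and 0.358). Dimmer Ppargc1a probe sets gave 1.17, 0.65, 0.84 and 0.50, with limma unadjusted p of 0.0190, 0.0634, 0.0659 and 0.178. The arrays overlapped at all of these but the first. Mlxipl, the carbohydrate response factor ChREBP, differed by 0.56 ± 0.30 and Cebpa, an adipocyte factor, by 0.40 ± 0.24. Pparg, the main inducer of Pck1 in fat, differed by 0.24 and Creb1, which binds cyclic AMP response elements, by -0.09, with limma unadjusted p of 0.508 and 0.505. These 2 were named after their values were seen.

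**Figure D5:**
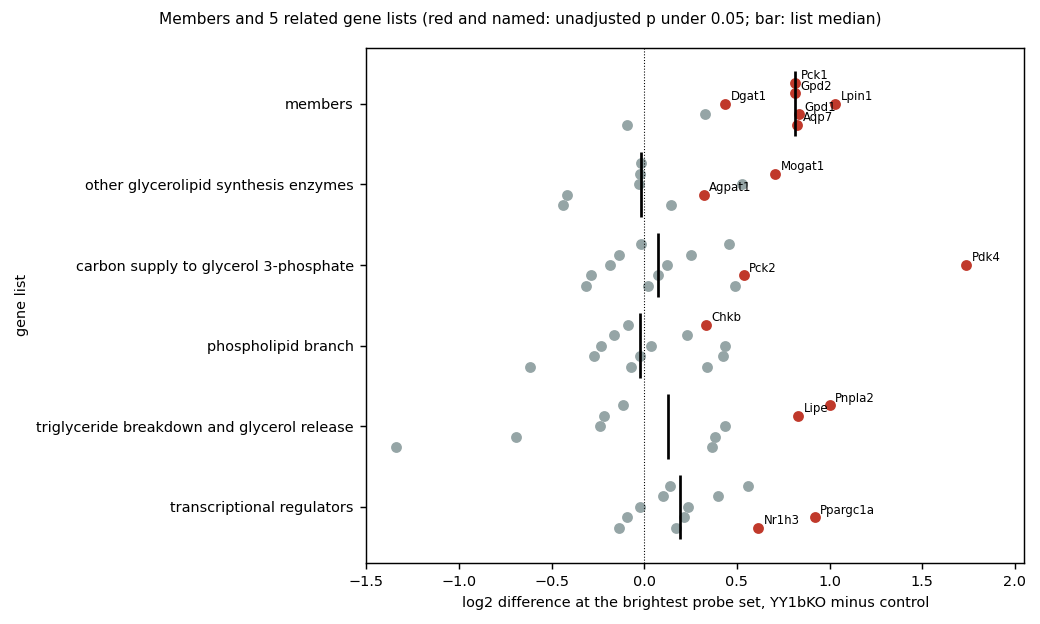
Log2 difference at the brightest probe set (x axis) of each measured gene in the member list and 5 related lists (y axis), 1 point per gene, with a black bar at each list median. Red, named points had an unadjusted p under 0.05 by limma. The member median (0.81) lies to the right of the other 5 (-0.02 to 0.19), and Pdk4 lies farthest right.

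Enzymes were compared directly in 6 pairs chosen after their values were seen. Each pair shares a step, except that Gpd1 and Gpd2 convert the same metabolites in opposite directions. The log2 value of one enzyme minus that of the other was taken on each array. This quantity was larger in YY1bKO than in control by 1.47 for Lpin1 minus Lpin2, by 0.89 for Lpin1 minus Lpin3 and by 0.53 for Dgat1 minus Dgat2, each without overlap of the arrays. The exact 2-sided permutation p of these 3 pairs was 0.1, the smallest possible, and 0.2 after adjustment over the 6 pairs. The other 3 pairs overlapped, with 0.28 for Pck1 against Pck2, 0.02 for Gpd1 against Gpd2 and -0.20 for Gpam against Gpat4, and adjusted permutation p from 0.3 to 0.8.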

How the data were processed

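Total RNA of 6 fat samples was hybridised to Affymetrix arrays. The authors deposited 1 intensity per probe set and array, made with RMA per the submitters' processing notes. Their range showed a linear scale. RMA makes array distributions alike, and medians ran from 123.15 to 130.35. No pair of arrays was a duplicate (Spearman correlation of at most 0.994 across probe sets). The 64 Affymetrix controls were left out, and probe sets naming several genes (691) or not listed in the annotation table (1606 of 22690, controls included) were tested but not named.

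Values were taken as log2(intensity + 1) and compared 2-sided by limma (version 3.58.1; R version 4.3.3) over all 22626 probe sets, after tests on simulated data. Exact permutation tests used all 20 splits. Members and gene lists were chosen with earlier results of these data known. Named genes were all members, Yy1, Ucp1 and, per pathway list, the 4 genes with the smallest p; exceptions are marked or are cell markers, other aquaporins and Lpin3. Of the liver list 5 of 6 genes were measured, with a median of 0.0091, and macrophage and endothelial medians were -0.01 and 0.31 (6 genes each). Brown and beige markers (7 of 8) had a median of 2.15. Alternatives covered normalization, pseudocount, dim probe sets, probe sets per gene, variance model, array weights, replicate block, each array left out and, added later, an adipocyte covariate.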

Additional observations from a re-analysis of the deposited data

How the results depend on the processing

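Of 246 member differences under 16 alternatives, 226 kept their direction and side of the threshold, 10 lost the call (all of Lpin1 1426516_a_at), 1 gained it (Pck1 1423439_at) and 9 turned sign. The count of 11 probe sets past the threshold was 5 with array medians subtracted, 7 without dim probe sets, 4 with 1 probe set per gene, 23 with array weights, 2 with the adipocyte covariate and 1 to 7 with 1 array left out. The count of 1 member probe set became 2 with a pseudocount of 16 and 0 with array medians subtracted, without dim probe sets, with 1 probe set per gene and with the covariate, and was 0 with any 1 array left out. The 9 member probe sets higher at an unadjusted p under 0.05 became 4 with the covariate and 4 to 10 with 1 array left out, and the 0 lower became 2 with the covariate (both of Dgat2). Signs turned for Pck1 1455209_at (-0.0073 with array weights, -0.039 to 0.078 with 1 array left out), Gpd1 1439396_x_at (-0.14 with the covariate), Gpam 1425834_a_at (-0.22 to 0.0055 with 1 array left out) and Dgat2 (1422677_at 0.0075 with array weights and -0.39 to 0.31 with 1 array left out, 1422678_at -0.29 to 0.16). Same-numbered arrays of the genotypes had correlations of deviations of 0.61, 0.11 and 0.02, and control replicate 3 with YY1bKO replicate 2 had 0.60. Whether arrays of the same number were paired or shared a batch cannot be told from these values. With the replicate block 1 probe set and 0 member probe sets passed. The causes were not tested. The number of arrays limits all values, and probe sets below the lower quartile carry little signal over background.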
